A study of Mus musculus with 4 samples.

Results

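Of 38 genes for glucose uptake, glycolysis, lactate export and the pentose phosphate pathway, 34 (89.5%) carried an H3K27ac peak at an annotated gene end in cultured mouse Th17 cells. The share over all 21631 protein-coding genes was 53.8%. H3K27ac is the acetylated lysine of histone H3 that lies at active promoters and enhancers. The 38 genes were taken by name, and each peak of the deposited list that overlapped a gene or the 20000 bp on each side of it was assigned to that gene (GRCm38). Peaks within 1000 bp of an annotated end were counted apart as gene-end peaks. The 38 windows held 229 peaks, none of them shared between members.

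Th17 cells, a subset of CD4+ helper T cells named for IL-17, were profiled in the study by ChIP-seq with 2 H3K27ac immunoprecipitation libraries and 2 input DNA libraries from 2 biological replicates. The cells grew for 72 h from naive CD4+ T cells of the C57BL/6 strain. Activation was by 0.25 µg/mL anti-CD3ε plus 1 µg/mL anti-CD28, and polarisation by 20 ng/mL IL-6 plus 0.1 ng/mL TGF-β (0.1 to 5.0 ng/mL in the growth protocol). All libraries came from this culture, so there is no other condition to compare with. Every peak name in the list carries a prefix with WT_Ddx5 and F1, which the labels do not explain, so whether the cells were of a further genotype or line is unknown. The list holds 56285 peaks by position alone, with no score and no value per replicate. Values below therefore have no replicate error, the read depth is unknown, and each comparison is a description of 1 list with no test. A mark in a part of the cells and a weaker mark in all of them cannot be told apart in a bulk culture. As a check of the label, 10 of 11 T cell and Th17 marker genes had a gene-end peak, and 4 of 20 markers of B cells, myeloid cells, erythroid cells, liver, muscle and neurons did.

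Glycolysis turns glucose into pyruvate through hexose and then triose phosphates. Hexokinase, phosphofructokinase and pyruvate kinase catalyse its irreversible steps, and most steps have several isozymes with different tissue patterns. Pyruvate is reduced to lactate by lactate dehydrogenase or enters the mitochondrion through pyruvate dehydrogenase, which pyruvate dehydrogenase kinases inhibit. The pentose phosphate pathway branches off at glucose 6-phosphate and yields NADPH and ribose phosphate. Activated T cells, Th17 cells among them, are known to raise glycolysis, under the transcription factors Myc and HIF-1α.

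These 6 promoter stretches show the contrast that recurs below, starts that lay inside a peak and starts that did not. Each is the 250 bases before a RefSeq transcription start (GRCm38.p6), 5′ to 3′ on the strand of the gene, and the capitals mark ACGTG on either strand, the core of the hypoxia response element.
Slc2a1 (chr4:119108495-119108744, + strand): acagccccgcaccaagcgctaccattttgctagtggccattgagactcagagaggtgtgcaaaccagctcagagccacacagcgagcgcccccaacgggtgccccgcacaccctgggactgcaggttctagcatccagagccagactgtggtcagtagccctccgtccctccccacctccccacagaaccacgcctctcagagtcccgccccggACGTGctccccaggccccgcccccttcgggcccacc
Hk2 (chr6:82774455-82774704, - strand): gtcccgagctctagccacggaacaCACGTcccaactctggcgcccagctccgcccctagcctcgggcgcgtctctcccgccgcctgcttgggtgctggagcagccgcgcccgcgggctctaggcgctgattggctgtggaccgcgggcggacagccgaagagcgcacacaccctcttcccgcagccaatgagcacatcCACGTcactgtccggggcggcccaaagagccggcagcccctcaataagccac
Ldha, upstream start (chr7:46845554-46845803, + strand): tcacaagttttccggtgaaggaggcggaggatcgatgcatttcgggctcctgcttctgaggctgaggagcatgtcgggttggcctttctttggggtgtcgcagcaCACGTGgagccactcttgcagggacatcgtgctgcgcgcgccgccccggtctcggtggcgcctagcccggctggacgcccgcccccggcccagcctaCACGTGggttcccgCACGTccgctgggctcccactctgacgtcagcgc
Hk1, upstream start (chr10:62379909-62380158, - strand): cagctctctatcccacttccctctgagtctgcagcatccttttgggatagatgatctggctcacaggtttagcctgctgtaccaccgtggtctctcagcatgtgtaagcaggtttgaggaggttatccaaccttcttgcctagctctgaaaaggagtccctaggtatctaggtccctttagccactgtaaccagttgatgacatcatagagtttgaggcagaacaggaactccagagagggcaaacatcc
Hk1, downstream start (chr10:62340422-62340671, - strand): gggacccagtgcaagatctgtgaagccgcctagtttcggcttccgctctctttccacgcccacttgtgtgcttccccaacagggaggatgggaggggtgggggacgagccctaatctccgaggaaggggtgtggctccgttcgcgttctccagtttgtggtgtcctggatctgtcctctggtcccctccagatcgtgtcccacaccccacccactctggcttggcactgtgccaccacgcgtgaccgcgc
Pklr, upstream start (chr3:89135892-89136141, + strand): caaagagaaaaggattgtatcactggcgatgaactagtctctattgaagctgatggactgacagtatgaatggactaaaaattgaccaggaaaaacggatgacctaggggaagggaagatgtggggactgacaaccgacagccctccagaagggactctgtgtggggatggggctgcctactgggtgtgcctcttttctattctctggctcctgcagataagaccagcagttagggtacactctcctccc
The stretches of Slc2a1, Hk2, Ldha and the downstream start of Hk1 lay in peaks over all 250 bases. Those of the upstream start of Hk1 and of Pklr had 0 bases in a peak. Ldha had 5 matches, since each of its 2 copies of CACGTG matches on both strands and 1 further copy of the core stands alone. Hk2 had 2 matches and Slc2a1 had 1. The other stretches had 0 in these 250 bases. With the 50 bases after the start added, as in the counts below, the downstream start of Hk1 had 2. The 6 stretches do not show how often the core goes with a peak. In those 300 bases it was found at 18 of 46 member starts in a peak and 4 of 12 outside.

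Gene-end peaks of the members lay at starts more often than at finishes. Starts were listed for 37 members, all but Slc2a3. Of these 37, 26 had gene-end peaks at the start alone, 7 at both ends and 0 at the finish alone. The same split over all protein-coding genes is not given here, so it cannot be read as a trait of the members. The remaining 4 of the 37, Hk1, Pfkfb2, Ldha and Pklr, had no gene-end peak. A peak lay at most 1000 bp from a listed start in 36 of the 37 (all protein-coding genes with a listed start: 55.0%), and a listed start lay inside a peak in 33 (50.7%). Pklr was the 1 member with no peak near a start. The other members without a start inside a peak were Hk3, Aldoc and Pgk1. Taking for each member the peak nearest to either annotated end, the member just inside the 1000 bp limit was Hk3, at 662 bp, and the member just outside was Ldha, at 2016 bp.

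The length under peaks in a gene and its flanks had a median of 6411 bp over the 38 members, with a range of 1241 to 22336 bp. The median over all protein-coding genes was 2399 bp, and 35 of the 38 lay above it. All 38 windows held at least 1 peak (all protein-coding genes: 70.9%), with a median of 5 peaks against 2. Windows differ in length, and as a share of the window the medians were 9.7% and 3.2%. By pathway step the median length was 11967.5 bp for the 4 transporters, 7870 bp for the 11 hexose phosphate genes, 8832 bp for the 11 genes from triose phosphates to pyruvate, 3823 bp for the 5 genes of pyruvate fate and 3666 bp for the 7 pentose phosphate genes. The upper quartile over all protein-coding genes was 5809.5 bp, and 21 of the 38 members lay above it, among them 0 of the 7 pentose phosphate genes.

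**Figure D1:**
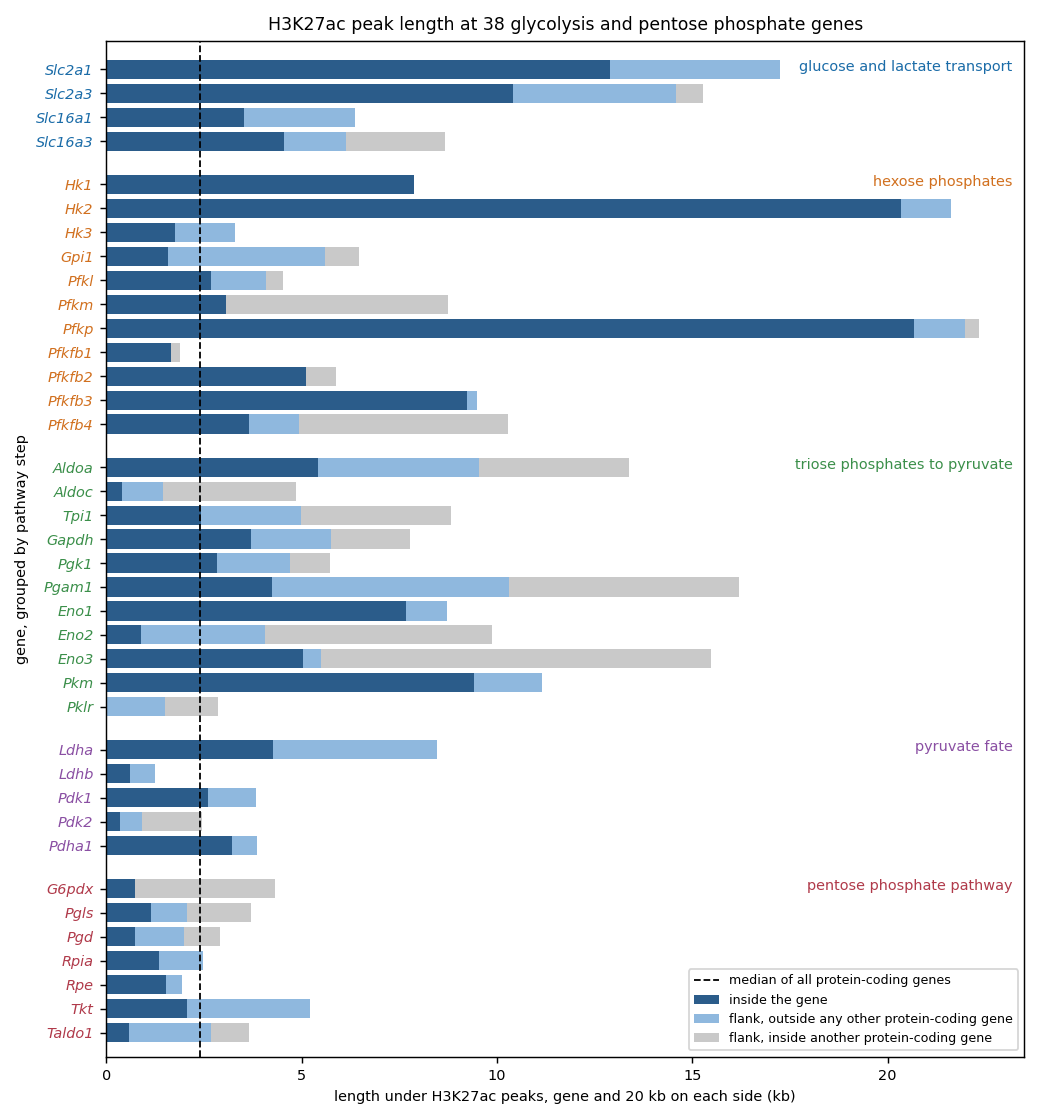
Length under H3K27ac peaks (kb) in each gene and 20 kb on each side, split into the part inside the gene, the part in flanks outside other protein-coding genes and the part in flanks inside another protein-coding gene; genes are grouped by pathway step and the dashed line is the median of all protein-coding genes (2399 bp). Pfkp, Hk2 and Slc2a1 have the longest bars, and the pentose phosphate genes lie between 1950 and 5214 bp.

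A window also collects peaks of neighbouring genes. Of the summed length over the members, 57.0% lay inside the member itself and 21.0% in flanks inside another protein-coding gene. The part inside members includes bases where another protein-coding gene overlaps the member, as in Eno3. The share in flanks inside another protein-coding gene was highest in G6pdx (82.8%), Aldoc (70.2%), Pfkm (65.1%) and Eno3 (64.4%). Of the 34 members with a gene-end peak, 27 (79.4%) had at least 1 that touched no end of another protein-coding gene, near the 73.1% of all protein-coding genes with a gene-end peak. For the other 7 (Pfkm, Pfkfb1, Pfkfb4, Aldoc, Tpi1, Gapdh and Eno3) every such peak also lay at the end of a neighbour.

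Among the transporters, Slc2a1, which encodes the glucose transporter GLUT1, had 11 peaks and 17249 bp (chromosome 4, 119108745 to 119137330), more than 96.1% of protein-coding genes. No other protein-coding gene lies in its window. A peak of 6574 bp held the start, and a second of 6844 bp (119122886 to 119129729) lay inside the gene, so that 45.1% of the gene was under peaks. Slc2a3, which encodes GLUT3, had 12 peaks and 15273 bp (chromosome 6, 122727809 to 122802363), with 1 gene-end peak of 1835 bp at its higher-coordinate end. Its widest peak inside the gene was 3010 bp (122762732 to 122765741), and the widest in the window, 3300 bp, lay outside the gene.

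The lactate transporters Slc16a1 (MCT1) and Slc16a3 (MCT4) had 6361 and 8662 bp, in 8 peaks each. The peak at the start of Slc16a1 was 4286 bp wide, and the 300 bases around that start, 250 before and 50 after, held 42 CpG dinucleotides, the most of any member start. Slc16a3, a target of hypoxia signalling in many cells, had peaks at both ends. Its finish peak of 2476 bp also lay at an end of Csnk1d, while its start peak of 2791 bp touched no other gene end.

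The hexokinases, which phosphorylate glucose on entry, differed widely. Hk2, the inducible isozyme, had 12 peaks and 21617 bp (chromosome 6, 82725025 to 82774454), 94.1% of it inside the gene, and no other protein-coding gene in its window. The peak over its start was 7571 bp wide (82768156 to 82775726), and 5 more peaks over 1000 bp wide lay between 82739833 and 82755571 in its middle part. Hk1, the widely expressed isozyme, had 7870 bp in 13 peaks (chromosome 10, 62268855 to 62379920), all inside the gene. Hk3 had 2 peaks and 3294 bp (chromosome 13, 55005985 to 55021475), one on each side of its start, which lay 752 bp from the nearer of them. The share of the gene under peaks was 41.2% for Hk2, 11.4% for Hk3 and 7.1% for Hk1.

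Hk1 had no gene-end peak and was marked at an inner start. Its upstream start (62379908) was 38174 bp from the nearest peak, whereas the downstream start, 39487 bp further along the gene, lay in a peak of 3511 bp (62338224 to 62341734). The 300 bases around the upstream start had 51.3% GC and 1 CpG, and those around the downstream start 63.3% GC and 20 CpG. Hkdc1, a further hexokinase gene 3216 bp beyond the upstream end of Hk1, had 0 peaks in its own window.

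Phosphofructokinase commits fructose 6-phosphate to glycolysis. Its platelet-type gene Pfkp had the longest stretch of all members, 22336 bp in 18 peaks (chromosome 13, 6579874 to 6649060), with 20671 bp inside the gene. The peak at its start was 3811 bp wide, and the widest, 6011 bp (6632181 to 6638191), lay inside the gene. The liver-type gene Pfkl had 4527 bp in 5 peaks and the muscle-type gene Pfkm 8746 bp in 5 peaks, but 5690 bp of the latter lay inside neighbours, Senp1 and Asb8. Inside the genes Pfkl had 2674 bp and Pfkm 3056 bp. Gpi1, the isomerase that makes fructose 6-phosphate, had 6461 bp and a start peak of 2315 bp.

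The 4 Pfkfb genes encode the bifunctional enzymes that set fructose 2,6-bisphosphate, an activator of phosphofructokinase. Pfkfb3, the isozyme with the highest kinase activity, had 9491 bp in 8 peaks (chromosome 2, 11471430 to 11554071), 97.4% inside the gene. Peaks held both of its listed starts, which lie 51839 bp apart: 2106 bp at the upstream and 3675 bp at the downstream start. Pfkfb4 had 10291 bp, but its widest peak, 12983 bp (chromosome 9, 109048211 to 109061193), overlapped its neighbour Shisa5 and reached past the window, and 3655 bp fell inside Pfkfb4. Its start was held by a peak of 596 bp. Pfkfb2 had 5887 bp and no gene-end peak. Its upstream listed start lies 13205 bp inside the annotated gene, in a peak of 2649 bp that reaches into Yod1. Pfkfb1, which serves liver and muscle, had 1 peak of 1889 bp, shared with an end of Apex2.

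**Figure D2:**
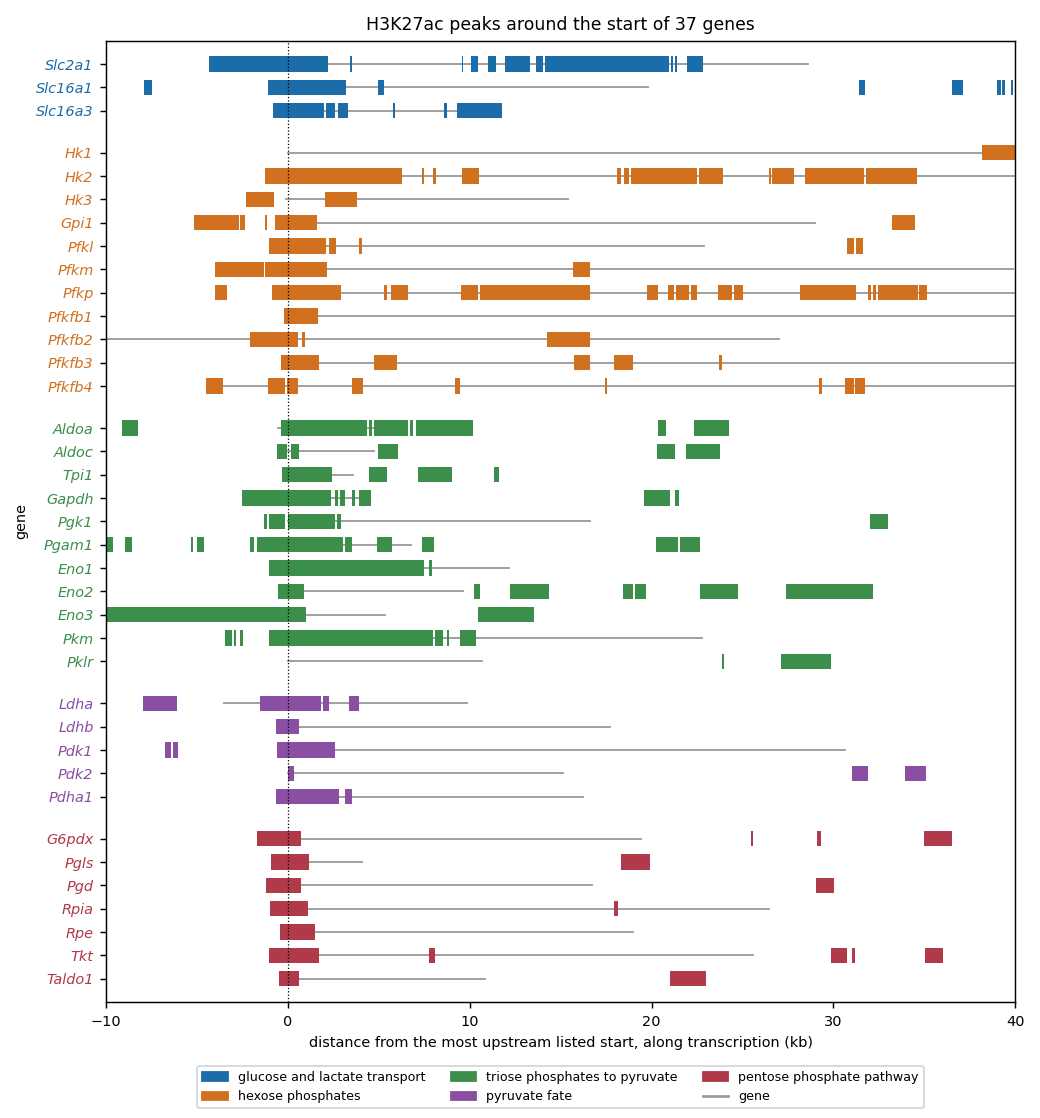
Peaks (boxes) along the 37 genes with a listed start, placed by distance in kb from the most upstream listed start along the direction of transcription; grey lines are the annotated genes, colours the pathway steps, and peaks of the 20 kb windows are shown from 10 kb before to 40 kb after the start. Hk2 and Pfkp carry peaks along the gene, whereas the pentose phosphate genes have a peak of 1096 to 2763 bp at the start and 1 to 5 peaks in all.

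From triose phosphates to pyruvate, Pkm and Eno1 carried single wide peaks over the start. Pkm, which encodes the M1 and M2 pyruvate kinases, had 11163 bp (chromosome 9, 59656576 to 59679372), of which 1 peak of 9051 bp held both listed starts. Eno1, the ubiquitous enolase, had 8721 bp (chromosome 4, 150236708 to 150248879) in 2 peaks, and 1 of 8509 bp held its 3 listed starts. In the peak at the start, Gapdh had 4880 bp, the mutase gene Pgam1 4771 bp, the aldolase gene Aldoa 4765 bp and the triose isomerase gene Tpi1 2765 bp. Of the bases inside these short genes, peaks covered 94.0% of Aldoa, 80.5% of Gapdh, 68.0% of Tpi1 and 62.3% of Pgam1.

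Pgk1, the X-linked phosphoglycerate kinase gene, had its start in a gap of 167 bp between a peak of 891 bp and one of 2580 bp. The start lay 16 bp from the second (chromosome X, 106187116 to 106189695). It was therefore counted as outside a peak, although both flanking peaks lay at its end.

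The tissue isozymes of these steps had less length under peaks inside the gene than Pkm (9417 bp), Aldoa (5416 bp) and Eno1 (7676 bp) of the same families. Pklr, the pyruvate kinase gene of liver and red cells, had 0 bp inside the gene (chromosome 3, 89136122 to 89146815) and its 2 peaks lay 13190 bp or more beyond its finish. Aldoc, the brain aldolase gene, had 411 bp inside the gene, and its peaks of 525, 411 and 1110 bp at the ends also lay at ends of Spag5 or Pigs. Its start lay 56 bp from a peak. Eno2, the neuronal enolase gene, had 883 bp inside the gene out of 9874 bp in the window, with 5813 bp inside neighbours. Eno3, the muscle enolase gene, had 5034 bp inside the gene out of 15473 bp (chromosome 11, 70653125 to 70662513). Of these 5034 bp, 3675 bp also lay inside another protein-coding gene. Of its 2 peaks, the one holding the start, 12382 bp wide (70645777 to 70658158), spanned all of Pfn1, the profilin gene, and all of Rnf167, and reached into Slc25a11. To which gene such a peak belongs was not tested.

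At the pyruvate branch, Ldha and Ldhb differed. Ldha, whose product favours lactate formation, had 8 peaks and 8472 bp (chromosome 7, 46842274 to 46855627), and a peak of 3339 bp (46844290 to 46847628) held both listed starts. The annotated gene begins 3530 bp before the upstream of these starts, and the peak lay 2016 bp from the annotated end. Ldhc, the testis gene 5635 bp further on, had 0 bp inside the gene. Ldhb had a single peak of 1241 bp over its start and the shortest length of all members. The kinase gene Pdk1 had 3823 bp with a start peak of 3199 bp, and Pdk2 had 2442 bp with a start peak of 376 bp, the narrowest of the members. Pdha1, which encodes the pyruvate dehydrogenase subunit that these kinases phosphorylate, had 3858 bp with a start peak of 3443 bp.

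All 7 pentose phosphate genes had a peak over a listed start, with 1 to 5 peaks in the window. In Rpia and Taldo1 the widest of these, 2761 and 1988 bp, lay outside the gene, away from the start peaks of 2129 and 1096 bp. Most of this Rpia peak reached past the window and is not in the length given for Rpia. Lengths ran from 1950 bp for Rpe, the ribulose phosphate epimerase gene, to 5214 bp for Tkt, the transketolase gene. The oxidative genes G6pdx, Pgls and Pgd had 4326, 3708 and 2901 bp, and the non-oxidative genes Rpia and Taldo1 2466 and 3666 bp. G6pdx, which encodes the enzyme that commits glucose 6-phosphate to the pathway, had 745 bp inside the gene (chromosome X, 74409483 to 74428880). It lies inside the annotated span of Ikbkg, so its peak of 2440 bp over the start cannot be given to 1 of these genes by position. Start peaks were 1096 to 2763 bp wide, and the median share of the gene under peaks was 5.4%, against 53.6% from triose phosphates to pyruvate. These genes are also longer, with medians of 19009 and 9389 bp.

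The peak that held the start had a median width of 2791 bp over the 33 members with such a peak, against 1873 bp (quartiles 1293 and 2691 bp) over the 8753 protein-coding genes with one. The median was 4825.5 bp for the 8 genes from triose phosphates to pyruvate, 4286 bp for the 3 transporters, 3199 bp for the 5 genes of pyruvate fate, 2890.5 bp for the 10 hexose phosphate genes and 2067 bp for the 7 pentose phosphate genes. Eno3, Pkm, Eno1, Hk2 and Slc2a1 had the widest, above 96.4% of those genes or more. The pentose phosphate genes lay between the 17.6th percentile for Taldo1 and the 76.3rd for Tkt.

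**Figure D3:**
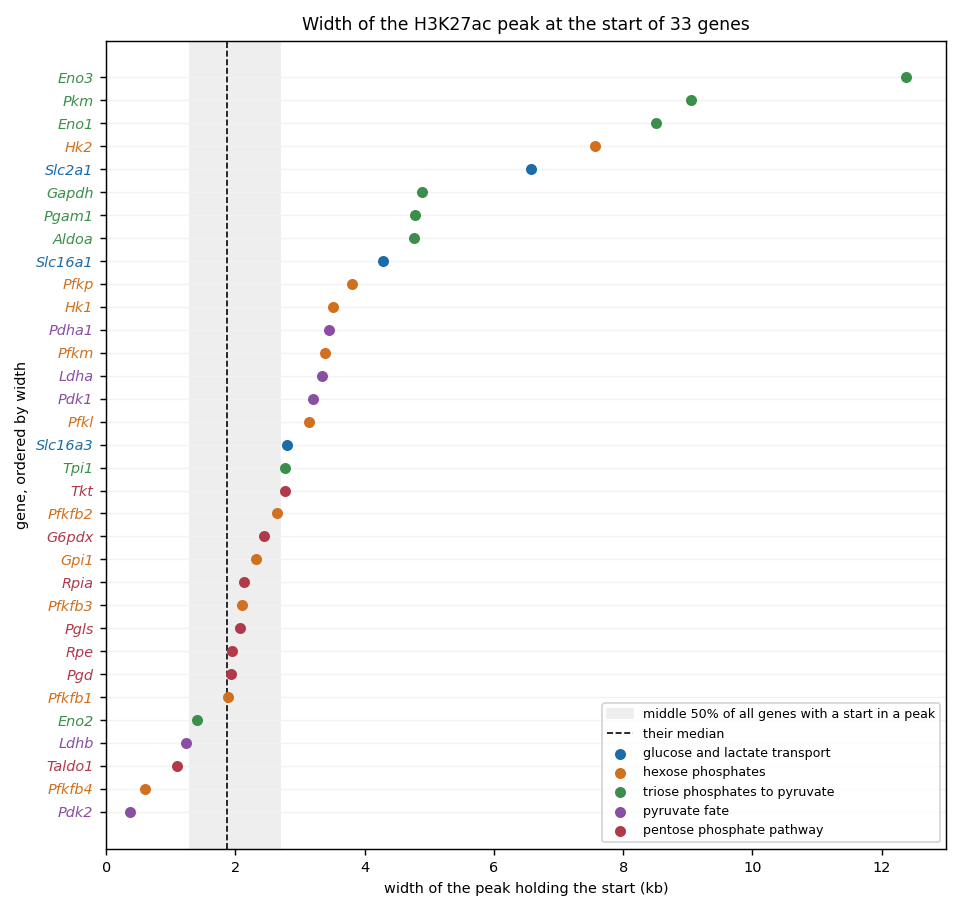
Width in kb of the peak that holds the most upstream listed start lying in a peak, for the 33 members with such a start, ordered by width and coloured by pathway step; the grey band is the middle 50% of all protein-coding genes with a start in a peak and the dashed line their median (1873 bp). Pkm, Eno1, Hk2 and Slc2a1 lie between 6574 and 9051 bp, Eno3 at 12382 bp shares its peak with Rnf167 and Pfn1, and 5 of the 7 pentose phosphate genes lie in the band.

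The 37 genes have 58 listed starts, of which 46 lay in a peak (all protein-coding genes: 49.3% of starts). Of the 14 members with more than 1 listed start, 7 had all starts in a peak and 5 had some (25.2% of the 2761 protein-coding genes with more than 1). The 5 were Hk1, Pfkm, Pfkfb1, Pfkfb2 and Pdk2. The 2 with none were Aldoc and Pklr. The shares of the 2761 genes with all starts or no start in a peak are not given here. The 7 and the 2 therefore cannot be read as a trait of the members. In Pfkm, peaks held the first 3 of 4 listed starts, and the fourth lay 2876 bp from a peak. In Pfkfb1 the first 2 of 4 lay in the peak shared with Apex2, and the others were 814 and 5326 bp away.

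**Figure D4:**
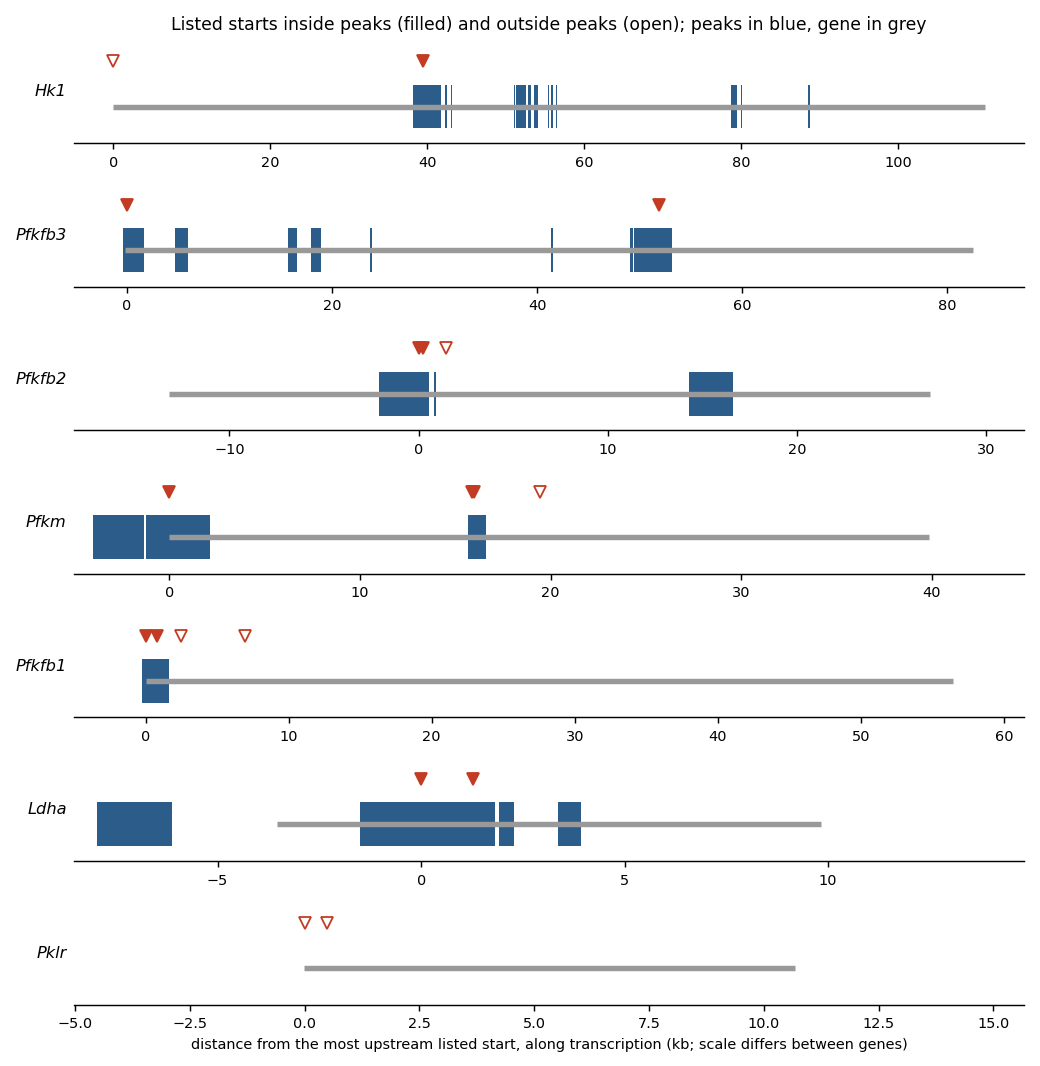
Listed starts (triangles, filled inside a peak and open outside) and peaks (blue) along Hk1, Pfkfb3, Pfkfb2, Pfkm, Pfkfb1, Ldha and Pklr, in kb from the most upstream listed start, with a scale of its own for each gene. In Hk1 the upstream start is 38174 bp from a peak and the downstream one inside a peak; both starts of Pfkfb3 and Ldha are inside peaks and both of Pklr outside.

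More of the length under peaks lay after the start than before it, in the members as in genes in general. In the 5000 bp after the most upstream listed start the members had a median of 1762 bp under peaks, against 1045 bp in the 5000 bp before it. The same medians over all 17274 protein-coding genes with a listed start were 437 and 152 bp. More lay after the start than before in 25 of 37 members, less in 10 and the same in 2 (Hk1 and Pklr, with 0 bp on both sides). Over the 17274 genes the same counts were 6779, 3194 and 7301. Among the 10 were Slc2a1, with 4358 bp before and 2335 bp after, and Eno3, with 5000 and 983 bp.

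Member starts inside peaks were richer in GC and CpG than those outside, as were starts in general. The 300 bases around the 46 member starts in a peak had a median of 60.8% GC and 20 CpG, and the 12 outside had 52.2% and 3.5. Over all listed starts of protein-coding genes these values were 62.0% and 22 inside and 50.3% and 4 outside. ACGTG, searched on both strands and also present inside every CACGTG, was found at 22 of 58 member starts (37.9%), against 21.1% of all listed starts. For starts inside a peak the shares were 39.1% and 27.0%, and for those outside 33.3% (4 of 12) and 15.3%. The E-box CACGTG was found at 6 of 58 (10.3% against 7.91%), the GC box GGGCGG at 30 (51.7% against 46.7%), CCAAT at 21 (36.2% against 38.5%) and TATAAA at 4 (6.90% against 12.7%). Among starts inside a peak the order turned for the GC box, with 60.9% of member starts against 68.1% of all, and the shares were 39.1% and 37.3% for CCAAT and 4.35% and 5.79% for TATAAA. The E-box was found at 6 of the 46 member starts in a peak, against 10.5% of all. Ldha had 5 matches of ACGTG at its upstream start, and Slc16a1 and the first start of Pfkm had 3 each. Some listed starts of the same gene lie close together, as in Aldoa and Eno1, so their windows overlap and the same letters are counted more than once. Such matches are counts of letters and do not show that a factor was bound.

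Stitching of peaks up to 12.5 kb apart gave 18748 clusters, and 826 of them above 13241 bp of covered length were taken as domains, by the point of slope 1 on the ranked curve. They overlapped 7 of the 38 members, against 6.37% of protein-coding genes. The domains of Slc2a1 (17249 bp covered), Hk2 (21617 bp) and Pfkp (21972 bp) overlapped no other protein-coding gene. Those of Aldoa, Pgam1, Eno2 and Eno3 held 4, 4, 8 and 6 genes. Of the covered length, 5416, 4232, 883 and 5034 bp lay inside the member. At Eno3, 3675 bp of this also lay inside another protein-coding gene. The domain at Eno2 covered 37560 bp over a span of 120743 bp. With gene-end peaks left out, Hk2 and Pfkp remained in a domain. None of the 7 pentose phosphate genes or the 5 genes of pyruvate fate was in one. With 6.37% of all genes in a domain, 0 among so few genes does not set them apart.

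Other genes of the same pathways were marked about as often as genes in general. Of 49 such genes, which include liver, muscle and testis isozymes, gluconeogenic genes and further subunits, 27 (55.1%) had a gene-end peak, and the median length was 1704 bp. The longest were Slc2a8 (9167 bp), a glucose transporter gene, the lactate dehydrogenase gene Ldhd (7681 bp, 0 bp inside the gene) and the phosphoglucomutase gene Pgm1 (6874 bp). Among those without a gene-end peak, the enolase gene Eno4 had 1311 bp and the gluconeogenic gene Fbp1 had 522 bp, and a listed start of Eno4 lay in a peak. Of 17 regulator genes, 16 had a gene-end peak (94.1%) and the median length was 7037 bp. Hif1a, which encodes HIF-1α, had 41762 bp in 19 peaks (chromosome 12, 73901324 to 73947554), Irf4 30165 bp and Egln3, which encodes a prolyl hydroxylase that marks HIF-1α for degradation, 17356 bp. The 3 were each in a domain. Mlxipl, which encodes the glucose sensor ChREBP, was the 1 regulator without a gene-end peak, at 3317 bp.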

How the data were processed

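The H3K27ac and input DNA libraries were aligned and called by the submitters. Their processing notes name MACS2 2.2.6, Bowtie2 2.3.4.1, deepTools and SAMtools 1.9 with GRCm38 (mm10), and the series' design text says that input DNA entered the peak call. The threshold, the filters and any pooling were not given in the sources used here. Per peak, the authors deposited chromosome, start, end and name, for 56285 peaks. Name numbers run from 15 to 71449, so some are absent, for reasons not given. Starts were read as counted from 0, because 787 peaks then have the smallest width, 100 bp. Positions are printed counted from 1. The 56284 peaks on chromosomes 1 to 19 and X were used.

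Genes and starts came from RefSeq tables of GRCm38.p6: 21631 protein-coding genes, of which 17274 had a listed start with strand. All members matched by symbol. Overlap meant at least 1 bp. Start windows ran from 250 bp before to 50 bp after. Percentiles of length are over all protein-coding genes. Those of start peak width are over the 8753 protein-coding genes with a listed start inside a peak. A result under another setting was called moved past 1.5 times the reported value. Members, lists and comparisons were chosen with earlier results of these data known. All 38 members are accounted for, and of the 2 further lists the 3 longest and the first 3 by name without a gene-end peak are named, except 1 gene that is not reported here. Neighbours are named where they share peaks. Overlap code was tested on simulated intervals, and all 1672 pairs of overlapping promoter windows on opposite strands agreed base for base. Python 3.11.15, numpy 2.4.6, pandas 2.3.3 and matplotlib 3.10.9 were used.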

Additional observations from a re-analysis of the deposited data

How the results depend on the processing

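The number of members with a gene-end peak, 34 of 38, stayed within 1.5 times of this under the 6 alternatives tried and was lowest, 24 (63.2%), with peaks placed by their midpoint, against 48.0% of all genes. The gap to all genes was then smaller than at the reported 89.5% against 53.8%. Those lost were Slc2a1, Slc16a1, Hk2, Hk3, Pfkp, Tpi1, Eno1, Eno3, Pkm and Pdha1. Among them were Eno3, with a gene-end peak of 12382 bp, and Hk3, with one of 1532 bp. Gapdh, with a start peak of 4880 bp, was kept. Whether peak width accounts for the loss was not tested. Of the 49 other pathway genes the count was lowest, 20, with peaks of at least 1000 bp (all genes 43.7%). It was highest, 29, with a gene-end window of 2500 bp (all genes 57.2%), and 26 with midpoints (48.0%). Of the 17 regulators it was 13 with midpoints (48.0%) and 16 under the other settings (43.7% to 57.2%). A peak lay at a listed start in 35 or 36 of the 37 members under each alternative (all genes 51.5% to 56.5%). The median length of 6411 bp became 11844.5 bp with flanks of 50000 bp (all genes 4584 bp) and 2950.5 bp with no flank (704 bp). The median number of peaks, 5 (all genes 2), became 3 with flanks of 5000 bp (all genes 1) and 10 with flanks of 50000 bp (5). With peaks at most 1000 bp apart merged it was 3 (all genes 2), a smaller gap than 5 against 2. With peaks of at least 500 bp it was 3 (all genes 1), and with peaks of at least 1000 bp 2 (1). Longer windows hold more peaks, and width limits or merging leave fewer. Members in a domain fell from 7 (all genes 6.37%) to 2 with gene-end peaks left out (all genes 2.12%). With stitching at 5000 bp they were 5 (all genes 4.06%), where Pkm entered and Slc2a1, Aldoa and Eno2 left. With peaks of at least 500 bp they were 6 (all genes 4.93%), where Aldoa left. No paired analysis was possible because the list gives no value per replicate, and leaving out a replicate could not be run for the same reason. A width limit stood in for a stricter peak threshold, which needs a score per peak. Read depth is unknown, so a missing peak does not show that the mark was absent.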
